A study of Homo sapiens with 4 samples.

Results

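In PC-3 tissues without fibroblasts, STAT3, STAT5A and STAT5B had 0 counts, and STAT2 and STAT6 had more counts than in the LNCaP monoculture. These 5 genes of the STAT family, out of 17791 genes in the table, are the subject here. They were picked by gene symbol, because earlier readings of these libraries had shown STAT3, STAT5A and STAT5B at or near 0 in PC-3 cells while STAT2 and STAT6 were high there. Their counts in the 4 libraries therefore describe the choice and support nothing.

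The libraries came from engineered prostate cancer tissues, made by embedding cells in poly(ethylene glycol)-fibrinogen, a soft gel, and kept until day 15, with no treatment named. There were 4 groups of 1 library each: PC-3 with BJ-5ta fibroblasts, PC-3 alone, LNCaP with BJ-5ta fibroblasts and LNCaP alone. Both are lines of prostate cancer cells, and the titles call PC-3 CRPC-ne and LNCaP ADPC, but neither abbreviation is spelled out there. BJ-5ta is an immortalised line of normal human fibroblasts, and the cocultures were seeded with 5 cancer cells to 1 fibroblast. The growth notes are written for PC-3 tissues, and which medium fed the LNCaP tissues is not known. Each kind of cell is a single line, so a difference between PC-3 and LNCaP is one between these lines and not between disease states. No group had a replicate. No test between groups was therefore possible, and each difference compares single libraries with an interval that covers counting error only.

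STAT proteins carry cytokine signals from the cell surface to the nucleus. A cytokine joins its receptor chains, the JAK kinases held by these chains phosphorylate a STAT, and paired STATs move to the nucleus and bind DNA. STAT3 answers to interleukin 6 and its relatives, which signal through the receptor chain gp130, and in prostate cancer it is known for its part in growth and survival. STAT5A and STAT5B are near-identical proteins that answer to prolactin, growth hormone and several interleukins. STAT6 answers to interleukin 4 and interleukin 13. STAT2 works with IRF9 in the complex ISGF3, which switches on interferon-stimulated genes. PC-3 cells are known to lack STAT3 protein.

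The DNA motifs of these factors were searched for near the starts of genes. STAT dimers bind the GAS motif, searched here as TTCNNNGAA, which reads the same on both strands. ISGF3 binds the ISRE, searched as 2 copies of GAAA with any 2 bases between them, or 2 copies of TTTC on the other strand. The search covered the 250 bases before each RefSeq start (GRCh38.p14), and the GAS motif was in 2306 of 35116 such windows (6.57%) and the ISRE in 1061 (3.02%). None of the 7 windows of the 5 STAT genes held either motif, which says only that these letters are not in those windows. Below are 3 windows of target genes, on the strand of the gene, with matches in capitals. CISH, an inhibitor that is a known target of STAT5, is shown because its window held 4 GAS motifs. ISG15, an interferon-stimulated modifier protein, and BST2, which tethers viruses to the cell surface, are shown as targets of ISGF3 with strong differences between the lines.
CISH, chr3:50611775-50612024, minus strand: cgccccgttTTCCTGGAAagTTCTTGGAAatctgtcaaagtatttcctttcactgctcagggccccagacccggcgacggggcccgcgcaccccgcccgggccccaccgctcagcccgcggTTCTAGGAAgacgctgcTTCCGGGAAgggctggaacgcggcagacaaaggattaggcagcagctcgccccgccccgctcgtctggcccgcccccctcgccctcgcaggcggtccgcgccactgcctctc
ISG15, chr1:1013247-1013496, plus strand: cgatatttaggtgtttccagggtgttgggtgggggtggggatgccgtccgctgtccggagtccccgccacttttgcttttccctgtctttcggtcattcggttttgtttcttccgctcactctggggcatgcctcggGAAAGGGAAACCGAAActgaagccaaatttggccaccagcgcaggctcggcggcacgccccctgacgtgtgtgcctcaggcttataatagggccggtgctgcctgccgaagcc
BST2, chr19:17405631-17405880, minus strand: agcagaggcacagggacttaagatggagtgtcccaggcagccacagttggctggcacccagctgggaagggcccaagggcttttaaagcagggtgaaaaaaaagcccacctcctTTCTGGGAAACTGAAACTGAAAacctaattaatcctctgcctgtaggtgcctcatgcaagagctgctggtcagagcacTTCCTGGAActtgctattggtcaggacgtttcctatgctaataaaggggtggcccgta
In ISG15 the capitals are 2 ISRE matches that overlap each other, and in BST2 they are 2 overlapping ISRE matches, the first of which also overlaps 1 GAS match, and a second GAS match nearer to the start. A match is a description of the letters and does not show binding.

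The libraries were alike in depth, with totals between 15520243 and 15865690 estimated counts. A count of 0 allows up to 3 counts, which is 0.188 to 0.193 counts per 1000000 counts (CPM) depending on the library. The marker genes fitted the labels of the cancer lines: KLK3 and KLK2, prostate proteases made by LNCaP cells, were at 0 in both PC-3 libraries and above 3 counts in both LNCaP libraries, and all 6 genes of the LNCaP list were at least 2-fold lower in the PC-3 than in the LNCaP monoculture. Fibroblast markers were present in both cocultures. The summed level of 16 of them was 672 CPM in the PC-3 coculture against 112 CPM in the PC-3 monoculture, and 1001 CPM in the LNCaP coculture against 7.22 CPM in the LNCaP monoculture. All 16 were above 3 counts in either coculture. At 0 were 6 of the 16 in the PC-3 monoculture (THY1, MMP2, CD248, TIMP3, AEBP1 and MXRA5) and 7 in the LNCaP monoculture (COL1A2, LUM, DCN, PDGFRA, FAP, MMP2 and MXRA5). The fibroblasts add their own RNA to a coculture library, and in a bulk sample fewer cells of a type and less RNA per cell cannot be told apart.

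STAT3, the main carrier of interleukin 6 signals, had 42 counts in PC-3 coculture and 0 in PC-3 monoculture, against 3689 in LNCaP coculture and 3422 in LNCaP monoculture. On the CPM scale its level was 2.68 in PC-3 coculture and 0 in PC-3 monoculture, and 238 and 217 in the LNCaP coculture and monoculture. The PC-3 monoculture was thus at least 1153-fold lower than the LNCaP monoculture, with the bound taken at 3 counts. The PC-3 coculture was 88.7-fold lower than the LNCaP coculture (95% interval 65.5 to 123). STAT5B, which carries growth hormone and prolactin signals, had 18 counts in PC-3 coculture and 0 in PC-3 monoculture, against 1014 in LNCaP coculture and 1284 in LNCaP monoculture. It was at least 433-fold lower in the PC-3 than in the LNCaP monoculture, and 56.9-fold lower (35.8 to 96.4) in the PC-3 than in the LNCaP coculture. STAT5A, its near-twin, had 2 counts in PC-3 coculture and 0 in PC-3 monoculture, against 108 in LNCaP coculture and 129 in LNCaP monoculture. That is at least 43.5-fold lower in the PC-3 than in the LNCaP monoculture. Between the cocultures, PC-3 over LNCaP, STAT5A rests on 2 counts, with a 54.6-fold lower level and an interval of 14.7 to 456. All 3 genes had their highest counts in the LNCaP libraries and no count in PC-3 cells grown alone.

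A level of 0 in the PC-3 monoculture was uncommon among genes that LNCaP cells expressed well. Of 8481 genes with at least 20 CPM in the LNCaP monoculture, 66 (0.778%) were at 0 in PC-3 cells grown alone, and STAT3 and STAT5B are among them. Ordered by their LNCaP monoculture level, the 887 genes at 0 in the PC-3 monoculture had STAT3 in place 5, STAT5B in place 22 and STAT5A in place 111. The STAT genes were picked with their low PC-3 counts known, so this share and these places describe the choice and support nothing. The 5 other genes whose levels over the 4 libraries were most like those of STAT3 were looked for by the largest difference in log2(CPM + 1), each taken relative to the gene's own LNCaP monoculture value. They were DDX3Y (largest difference 0.28), RAB5C (0.63), TNFRSF10D (0.79), KAT2A (0.83) and USP9Y (0.85). DDX3Y and USP9Y lie on the Y chromosome and had 34 and 16 counts in PC-3 coculture, and 0 each in PC-3 monoculture. In LNCaP coculture and monoculture DDX3Y had 2785 and 2822 counts, and USP9Y 4561 and 3390. RAB5C, a GTPase of early endosomes, and KAT2A, a histone acetyltransferase, are neighbours of STAT3 on chromosome 17. TNFRSF10D, a decoy receptor for the death ligand TRAIL, lies on another chromosome and had 10 counts in PC-3 coculture and 0 in PC-3 monoculture, against 2629 in LNCaP coculture and 1974 in LNCaP monoculture.

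**Figure D1:**
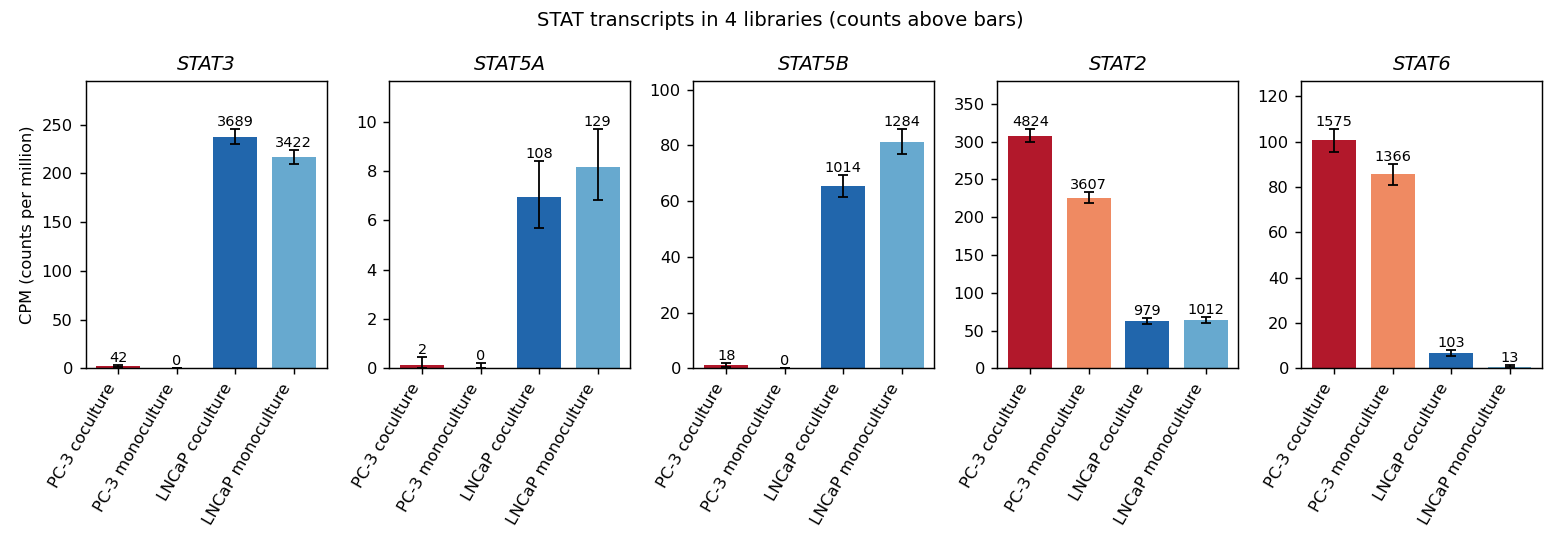
Level of each of the 5 STAT genes in the PC-3 coculture, PC-3 monoculture, LNCaP coculture and LNCaP monoculture, in CPM with exact 95% Poisson intervals, 1 library per group. STAT3, STAT5A and STAT5B are at 0 in the PC-3 monoculture, while STAT2 (226 CPM) and STAT6 (85.6 CPM) are highest in the PC-3 libraries.

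STAT2, the interferon member, and STAT6, the interleukin 4 member, had the opposite order. STAT2 had 4824 counts in PC-3 coculture and 3607 in PC-3 monoculture, against 979 in LNCaP coculture and 1012 in LNCaP monoculture. Its level was 3.53-fold higher (3.29 to 3.78) in the PC-3 than in the LNCaP monoculture, and 4.88-fold higher (4.55 to 5.23) between the cocultures. STAT6 had 1575 counts in PC-3 coculture and 1366 in PC-3 monoculture, against 103 in LNCaP coculture and 13 in LNCaP monoculture. Its level was 104-fold higher (60.6 to 196) in the PC-3 than in the LNCaP monoculture and 15.1-fold higher (12.4 to 18.7) between the cocultures. Both PC-3 libraries were above both LNCaP libraries for these genes. All 5 members were at least 2-fold apart between the monocultures, 2 higher and 3 lower in PC-3, where 23.6% of 15160 genes were at least 2-fold higher and 22.1% at least 2-fold lower. Between the cocultures the members again counted 2 higher and 3 lower, beside 23.6% and 20.7% of 15155 genes. The members were chosen for this difference, so nothing is read from those counts, and the comparisons between and within lines share libraries.

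Per length of transcript, which allows genes to be compared with each other, the family had a different make-up in the 2 lines. In the PC-3 coculture STAT2 stood at 94.5 CPM per kb and made up 78.6% of the summed level of the 5 genes, STAT6 stood at 24.9 CPM per kb and made up 20.7%, and STAT3 was 0.442%. In the PC-3 monoculture STAT2 stood at 69.3 CPM per kb (76.6%) and STAT6 at 21.2 CPM per kb (23.4%), and the other 3 genes were at 0. In the LNCaP coculture STAT3 led with 47.1 CPM per kb (57.1%), ahead of STAT2 with 19.4 CPM per kb (23.5%) and STAT5B with 12.8 CPM per kb (15.5%). STAT6 and STAT5A came last there, at 1.65 and 1.62 CPM per kb, and their counting intervals overlapped. In the LNCaP monoculture the order was STAT3 (42.9 CPM per kb, 53.2%), STAT2 (19.7, 24.4%), STAT5B (15.9, 19.8%), STAT5A (1.90, 2.36%) and STAT6 (0.204, 0.253%). STAT2 was the leading member in PC-3 and STAT3 in LNCaP, with and without fibroblasts. STAT5A and STAT5B share 507 windows of 50 bases, 11.9% of the windows of the STAT5A transcript and 10.0% of those of STAT5B, so some of their reads could be assigned to either gene. STAT3 shares no such window with either.

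The 3 members at 0 in the PC-3 monoculture lie side by side on chromosome 17, which the rule that chose them did not use. By RefSeq on GRCh38.p14, STAT5B runs from 42199177 to 42288370, STAT5A from 42287439 to 42311943 and STAT3 from 42313324 to 42388442. STAT5A and STAT5B overlap by 932 bases, and 1380 bases lie between STAT5A and STAT3. The library kit does not mark the strand, so reads in an overlap cannot be given to one gene. Around them, 8 consecutive genes with at least 5 CPM in the LNCaP monoculture had 0 counts in the PC-3 monoculture: KAT2A, RAB5C, GHDC, STAT5B, STAT5A, STAT3, CAVIN1 and ATP6V0A1. DHX58, an RNA-binding regulator of antiviral signalling next to KAT2A, had too low a level in LNCaP to count, with 11 counts in PC-3 coculture and 0 in PC-3 monoculture against 25 in LNCaP coculture and 39 in LNCaP monoculture. With it the stretch holds 9 genes and spans 421 kb, from 42101411 to 42522579. Over these 9 genes the counts summed to 400 in PC-3 coculture and 0 in PC-3 monoculture, against 12096 in LNCaP coculture and 11777 in LNCaP monoculture.

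The 5 neighbours in the run that are not STAT genes have unlike functions. KAT2A had 11 counts in PC-3 coculture and 0 in PC-3 monoculture, against 2359 in LNCaP coculture and 2807 in LNCaP monoculture, which makes the PC-3 monoculture at least 946-fold lower. RAB5C had 46 and 0 counts in the PC-3 coculture and monoculture, against 2229 and 2361 in the LNCaP coculture and monoculture (at least 796-fold lower in the PC-3 monoculture). ATP6V0A1, a subunit of the proton pump that acidifies vesicles, had 7 and 0 counts in the PC-3 coculture and monoculture, against 1924 and 1323 in the LNCaP coculture and monoculture (at least 446-fold lower). All 3 had at most 46 counts in either PC-3 library and at least 1323 in either LNCaP library. GHDC had 10 and 0 counts in the PC-3 coculture and monoculture, against 224 and 198 in the LNCaP coculture and monoculture. CAVIN1, which coats caveolae, the small pits of the cell membrane, had 253 and 0 counts in the PC-3 coculture and monoculture, against 524 and 214 in the LNCaP coculture and monoculture. CAVIN1 thus reached 119% of its LNCaP monoculture level in the PC-3 coculture, DHX58 28.4%, and the median of the 9 genes was 1.56%.

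The genes on either side were expressed in both lines. C17orf113 lies below the stretch, inside the span of ZNF385C, a gene with 29 counts or fewer in every library. C17orf113 had 72 and 66 counts in the PC-3 coculture and monoculture, against 74 and 143 in the LNCaP coculture and monoculture. NKIRAS2, an inhibitor of NF-kB signalling, is the next gene on that side with at least 5 CPM in either monoculture, and had 637 and 767 counts in the PC-3 coculture and monoculture, against 1212 and 1277 in the LNCaP coculture and monoculture. NAGLU, a lysosomal enzyme above the stretch, had 439 and 409 counts in the PC-3 coculture and monoculture, against 1009 and 725 in the LNCaP coculture and monoculture. COASY, which makes coenzyme A, had 1536 and 1443 counts in the PC-3 coculture and monoculture, against 1366 and 1224 in the LNCaP coculture and monoculture. The DNA of the cells was not measured in these files, and why the stretch had no counts was not tested.

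**Figure D2:**
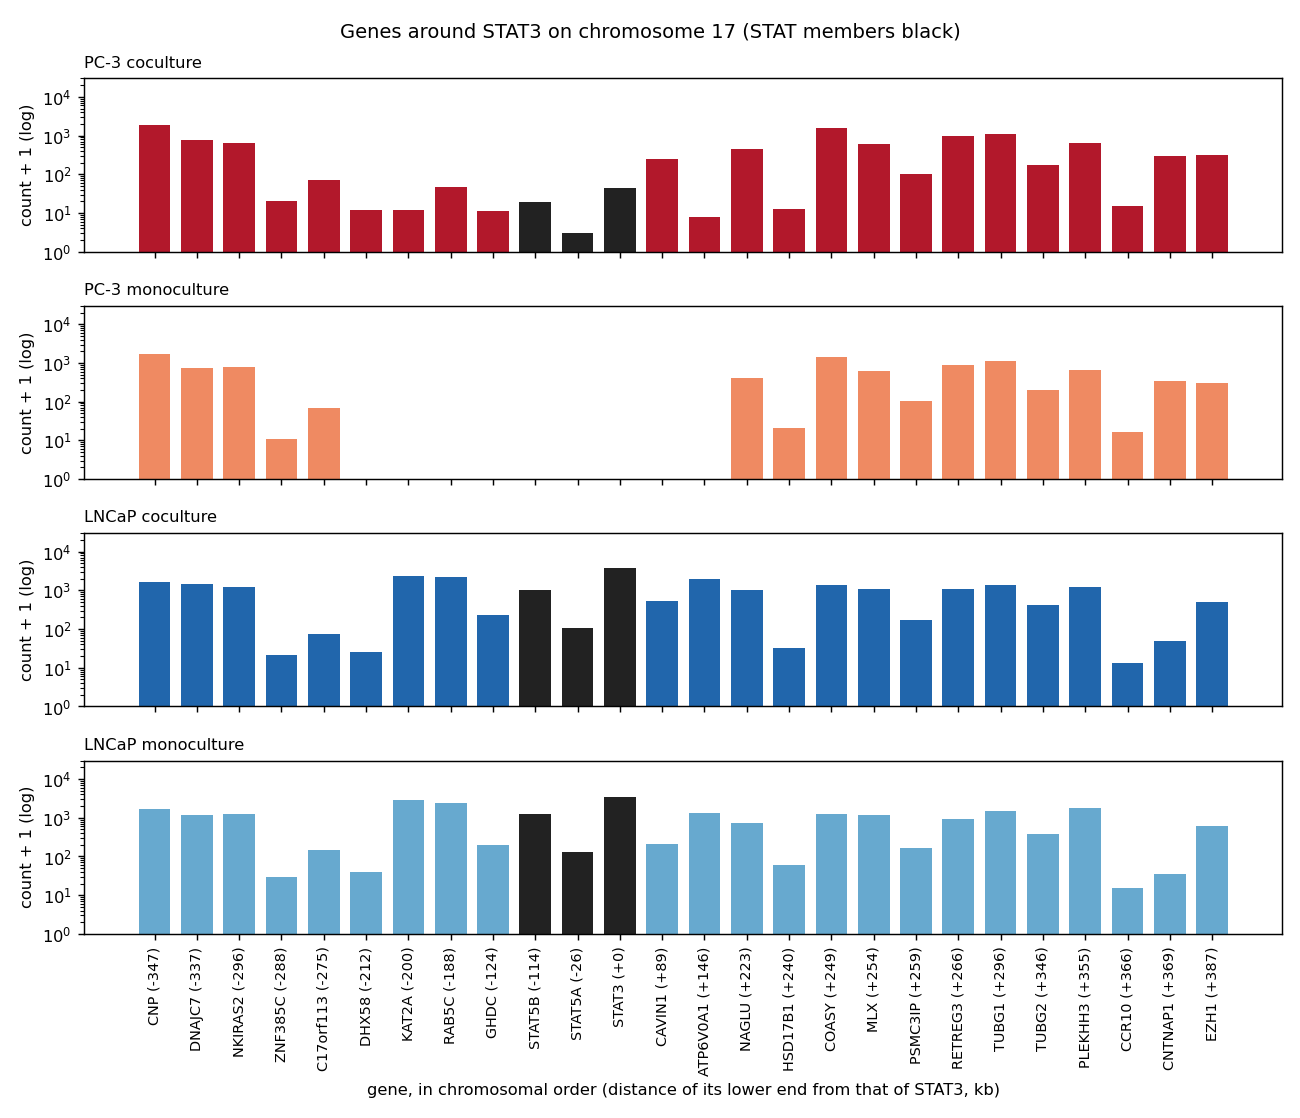
Estimated counts plus 1, on a log axis, of the genes around STAT5B, STAT5A and STAT3 on chromosome 17, in chromosome order, in the 4 libraries. The 9 genes from DHX58 to ATP6V0A1 have no counts in the PC-3 monoculture, against 39 to 3422 counts in the LNCaP monoculture, and the genes on both sides have counts in all 4 libraries.

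Runs of this kind were counted over the genome. Of 11184 genes with a position and at least 5 CPM in the LNCaP monoculture, 230 (2.06%) had 3 counts or fewer in the PC-3 monoculture. These made 6 runs of 3 or more consecutive genes, of which 3 had 5 or more. The run with STAT3 was the third longest, after 1 of 12 genes on the Y chromosome and 1 of 9 on the X chromosome. The X chromosome run was mostly MAGEA and CSAG genes. The 3 STAT genes in the run were picked with their low PC-3 counts known, so its length and place partly follow from the choice. At a minimum of 1 CPM there were 18 runs of 3 or more genes. With the lines exchanged, 8 such runs had 3 counts or fewer in the LNCaP monoculture, the longest of 5 genes. Within 1000000 bases of the 3 STAT genes, 42 of 67 genes had at least 5 CPM in the LNCaP monoculture, and the 8 of the run were the ones at 3 counts or fewer in the PC-3 monoculture.

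STAT2 and STAT6 are also on 1 chromosome, 12, with 735 kb between them, STAT2 at 56341597 to 56360107 and STAT6 at 57095408 to 57111362. No run of genes without counts lay near them. Of the genes within 1000000 bases of STAT2, 46 of 58 had at least 5 CPM in the LNCaP monoculture, and 0 of these had 3 counts or fewer in the PC-3 monoculture. Around STAT6 it was 50 of 66 and again 0. In the other direction, 0 of the 50 genes with at least 5 CPM in the PC-3 monoculture near STAT6 had 3 counts or fewer in the LNCaP monoculture. Near STAT2 it was 0 of 47, and near the 3 STAT genes on chromosome 17 it was 2 of 35. STAT6 overlaps NAB2, a repressor of early growth response factors, by 69 bases. NAB2 had 609 and 683 counts in the PC-3 coculture and monoculture, against 163 and 133 in the LNCaP coculture and monoculture, so it too was higher in the PC-3 monoculture, by 5.08-fold (4.21 to 6.16) beside 104-fold for STAT6.

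Fibroblast coculture was set against monoculture within each line. In PC-3 tissues, STAT3 had 42 counts in the coculture and 0 in the monoculture, at least 14.3-fold higher, and STAT5B had 18 and 0, at least 6.11-fold higher. STAT5A had 2 counts in the coculture and 0 in the monoculture, too few for a fold, and did not reach 1 CPM in either. STAT2 was 1.36-fold higher (1.30 to 1.42) in the coculture and STAT6 1.17-fold higher (1.09 to 1.26). Of the 4 members that reached 1 CPM in either PC-3 library, 2 were at least 2-fold higher and 0 lower, beside 2.22% of 14417 genes higher and 1.01% lower. Those 2 members passed only through the coculture, and they belong to the stretch on chromosome 17, where 8 of the 9 genes had more than 3 counts in the PC-3 coculture. BJ-5ta cells add RNA of their own to that library, where the fibroblast marker sum was 672 CPM against 112 CPM in the PC-3 monoculture; its part in the STAT3 and STAT5B counts was not tested.

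In LNCaP tissues, STAT6 differed most between coculture and monoculture. It had 103 counts in the coculture and 13 in the monoculture, an 8.07-fold higher level (4.51 to 15.7). STAT5B was lower in the LNCaP coculture at 0.804 of its monoculture level (0.740 to 0.874), with 1014 counts against 1284. STAT3 was 1.10-fold higher (1.05 to 1.15) in the coculture. STAT2 stood at 0.985 (0.901 to 1.08) and STAT5A at 0.852 (0.654 to 1.11) of the monoculture level, with intervals that include 1. Of the 5 members, 1 was at least 2-fold higher and 0 were lower, beside 4.56% of 14119 genes higher and 3.03% lower. The fibroblast marker sum was 1001 CPM in the LNCaP coculture against 7.22 CPM in the LNCaP monoculture; its part in the STAT6 count was not tested.

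**Figure D3:**
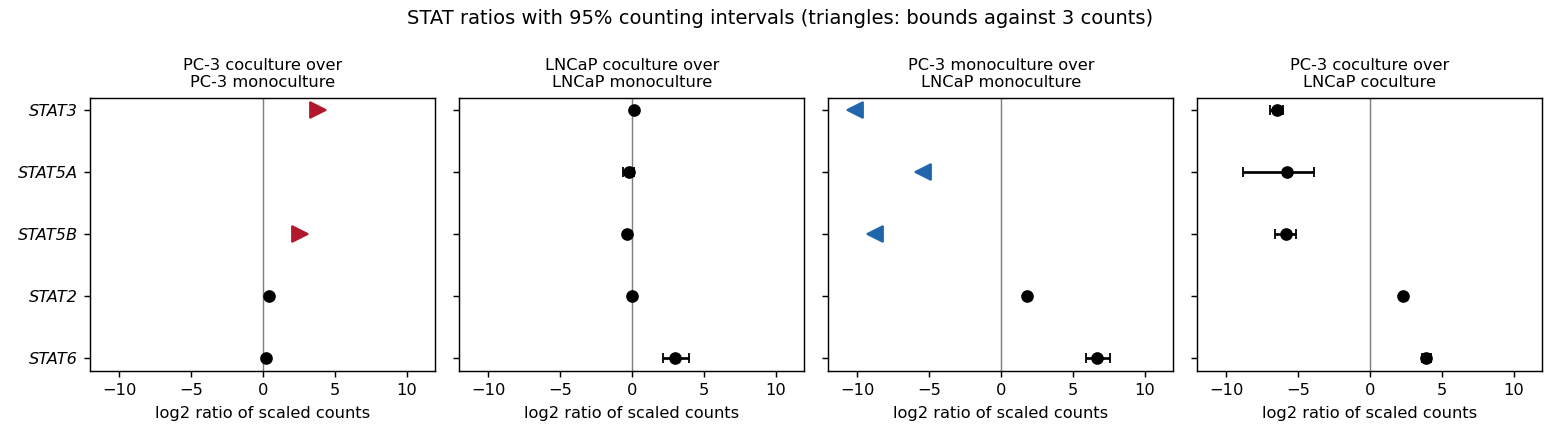
Fold of each STAT gene on a log2 axis in the 4 comparisons, coculture over monoculture within PC-3 and LNCaP and PC-3 over LNCaP within monoculture and coculture, with exact 95% counting intervals; triangles mark bounds taken at 3 counts. STAT3, STAT5A and STAT5B lie far to the low side and STAT6 and STAT2 to the high side in both comparisons of PC-3 with LNCaP, and STAT6 is 8.07-fold higher in the LNCaP coculture than in the LNCaP monoculture.

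The rest of the pathway was described from lists of its parts, which were drawn up with earlier results of these libraries known. A gene was taken as measured if either library of the pair reached 1 CPM, and each list is given by its counts and its median log2 fold. Some genes are on more than 1 list, SOCS3 and PIM1 among them. The median over all genes was -0.04 for PC-3 over LNCaP in monoculture, -0.01 in coculture, and 0.00 for coculture over monoculture in either line.

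Among the ligands, those of the gp130 family were higher in PC-3. Of 16 ligands in the table, 6 were measured between the monocultures, and 5 of these were at least 2-fold higher and 0 lower in PC-3, beside 23.6% and 22.1% of all genes. LIF, a cytokine that signals through gp130 to STAT3, had 1765 and 1841 counts in the PC-3 coculture and monoculture, against 101 and 102 in the LNCaP coculture and monoculture, a 17.9-fold higher level (14.6 to 22.0) in the PC-3 monoculture. CLCF1, a relative of it, had 394 and 468 counts in the PC-3 coculture and monoculture, against 9 and 6 in the LNCaP coculture and monoculture (77.2-fold between monocultures, 35.2 to 211). CTF1, cardiotrophin 1, was 25.4-fold higher (12.1 to 64.2) in the PC-3 monoculture. These ligands were thus high in the line without STAT3 counts. IL6 had 25 and 12 counts in the PC-3 coculture and monoculture and 0 in both LNCaP libraries. The median log2 fold of the ligands was 4.08 between the monocultures, or 3.74 with genes at 0 set at their bound. Between the cocultures it was 3.20 or 2.84, and PC-3 was at least 2-fold higher in 8 of 8, beside 23.6% of all genes.

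The receptor chains were mixed. Between the monocultures, 12 of 24 measured chains were at least 2-fold higher and 5 at least 2-fold lower in PC-3 (median log2 fold 0.81), beside 23.6% and 22.1% of all genes. IL6R, the chain that binds interleukin 6, had 358 and 271 counts in the PC-3 coculture and monoculture, against 1498 and 1787 in the LNCaP coculture and monoculture, a 6.67-fold lower level (5.86 to 7.60) in the PC-3 monoculture. IL6ST, which encodes gp130, was 2.29-fold lower (2.12 to 2.47) and LIFR, the chain for LIF, 1.79-fold lower (1.63 to 1.96) in the PC-3 monoculture; both were chosen after their values were seen. OSMR, the oncostatin M chain, was instead 3.80-fold higher (3.28 to 4.41). The ligand LIF and the chains it binds thus lay on opposite sides. IL7R, of the interleukin 7 receptor, had 486 and 443 counts in the PC-3 coculture and monoculture, against 46 and 0 in the LNCaP coculture and monoculture. IFNLR1, of the interferon lambda receptor, had 174 and 166 in the PC-3 coculture and monoculture, against 1 and 0 in the LNCaP coculture and monoculture. IL20RA was 20.7-fold higher (11.3 to 42.0) and IL27RA 10.2-fold higher (6.22 to 18.0) in the PC-3 monoculture. Between the cocultures 11 of 25 measured chains were at least 2-fold higher and 5 lower in PC-3, beside 23.6% and 20.7% of all genes.

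All 4 JAK kinases had counts in both lines, though JAK3 had only 28 and 24 in the LNCaP coculture and monoculture. JAK1, which serves interleukin 6 and interferon receptors, had 1783 and 1560 counts in the PC-3 coculture and monoculture, against 263 and 130 in the LNCaP coculture and monoculture. It was 11.9-fold higher (9.92 to 14.3) in the PC-3 than in the LNCaP monoculture, and 2.06-fold higher (1.66 to 2.56) in the LNCaP coculture than in the LNCaP monoculture. JAK3, which pairs with the common gamma chain, was 12.7-fold higher (8.40 to 20.2) and TYK2, a kinase of interferon receptors, 2.62-fold higher (2.44 to 2.82) in the PC-3 monoculture. JAK2, the kinase of prolactin and growth hormone receptors, had 669 and 695 counts in the PC-3 coculture and monoculture, against 788 and 758 in the LNCaP coculture and monoculture, and its interval between monocultures included 1 (0.907, 0.817 to 1.01). The kinases were thus present in the PC-3 monoculture, which had no STAT3, STAT5A and STAT5B counts. There, 3 of 4 were at least 2-fold higher and 0 lower than in the LNCaP monoculture, beside 23.6% and 22.1% of all genes.

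IRF9, the DNA-binding partner of STAT2 in ISGF3, lay on the same side as STAT2. It had 2924 and 2700 counts in the PC-3 coculture and monoculture, against 113 and 103 in the LNCaP coculture and monoculture, a 25.9-fold higher level (21.3 to 31.9) in the PC-3 monoculture.

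The known targets of the STAT proteins were listed by factor. SOCS3, an inhibitor that STAT3 is known to switch on, had 411 and 510 counts in the PC-3 coculture and monoculture, against 34 and 2 in the LNCaP coculture and monoculture. It was thus highest in the libraries with the fewest STAT3 counts: the PC-3 monoculture was 252-fold above the LNCaP monoculture (69.5 to 2089), which rests on 2 counts in LNCaP, and the PC-3 coculture 12.0-fold above the LNCaP coculture (8.43 to 17.5). In the LNCaP coculture SOCS3 was 17.3-fold higher (4.44 to 149) than in the LNCaP monoculture, again from those 2 counts. Between the monocultures, PC-3 was at least 2-fold higher in 10 and lower in 2 of 17 measured STAT3 targets (median log2 fold 1.43), beside 23.6% and 22.1% of all genes. Between the cocultures it was 10 higher and 3 lower of 19, beside 23.6% and 20.7% of all genes. ICAM1, an adhesion molecule, had 2088 and 2021 counts in the PC-3 coculture and monoculture, against 11 and 5 in the LNCaP coculture and monoculture, and TIMP1, an inhibitor of matrix proteases, had 3768 and 3160 counts in the PC-3 coculture and monoculture, against 246 and 0 in the LNCaP coculture and monoculture. Other factors are known to switch on many of these genes as well, so the list is no readout of STAT3 alone.

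CISH, whose window with 4 GAS motifs is printed above, was lower in PC-3 than in LNCaP, as the STAT5 genes were. It had 27 and 34 counts in the PC-3 coculture and monoculture, against 72 and 97 in the LNCaP coculture and monoculture, a 2.88-fold lower level (1.93 to 4.40) in the PC-3 monoculture and 2.69-fold lower (1.71 to 4.36) in the PC-3 coculture. Within PC-3 tissues CISH had a log2 fold of -0.29, coculture over monoculture, where STAT5B, starting from 0 counts, had 3.33. The other STAT5 targets lay on both sides between the lines. Between the monocultures, PC-3 was at least 2-fold higher in 4 and lower in 1 of 9 (median log2 fold 0.84), beside the same shares of all genes. PIM1, a survival kinase that is on the STAT3 and STAT5 lists, had 4805 and 6892 counts in the PC-3 coculture and monoculture, against 235 and 286 in the LNCaP coculture and monoculture, a 23.8-fold higher level (21.2 to 26.9) in the PC-3 monoculture. In PC-3 tissues PIM1 was lower with fibroblasts, at 0.710 (0.684 to 0.737) of the monoculture level. Of the 9 measured STAT5 targets, 2 had a log2 fold above 0 in that comparison, beside 7319 of 14417 genes, with a median of -0.28. At least 2-fold higher were 0 and at least 2-fold lower 0 of the 9, beside 2.22% and 1.01% of all genes. Of the 12 promoter windows of 8 STAT5 targets, 2 (16.7%) held a GAS motif, those of CISH and BCL6, beside 6.57% of all windows. The motif was in 1 of 16 windows of STAT3 targets (6.25%) and 1 of 9 of STAT6 targets (11.1%). Its share was highest in the windows of ISGF3 targets, with 9 of 39 (23.1%).

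STAT6 targets lay on both sides between the lines. Between the monocultures, PC-3 was at least 2-fold higher in 5 and lower in 2 of 8 (median log2 fold 2.84), beside 23.6% and 22.1% of all genes. TGM2, transglutaminase 2, had 1599 and 1789 counts in the PC-3 coculture and monoculture, against 100 and 16 in the LNCaP coculture and monoculture, a 111-fold higher level (67.9 to 194) in the PC-3 monoculture. ALOX15, a lipoxygenase induced by interleukin 4, had 10 and 4 counts in the PC-3 coculture and monoculture, against 1641 and 1771 in the LNCaP coculture and monoculture, a 448-fold lower level (174 to 1644) in the PC-3 monoculture. MAOA, monoamine oxidase A, was 7.66-fold lower (7.06 to 8.31). ALOX15 and MAOA were the 2 targets at least 2-fold lower in PC-3, beside the 5 that were higher there. Whether STAT6 set the level of any of these genes was not tested. In the LNCaP coculture STAT6 had 103 counts, and TGM2 was 6.36-fold higher (3.73 to 11.6) than in the LNCaP monoculture. ALOX15 stood at 0.943 (0.881 to 1.01) of its LNCaP monoculture level. Of 7 measured STAT6 targets, 1 (TGM2) was at least 2-fold higher and 1 (MUC5AC) lower, beside 4.56% and 3.03% of all genes. MUC5AC had 4 counts in LNCaP coculture and 18 in LNCaP monoculture. The fibroblast marker sum was 1001 CPM in the LNCaP coculture against 7.22 CPM in the LNCaP monoculture; its part in the TGM2 value was not tested.

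Targets of ISGF3 were higher in PC-3 almost throughout. Between the monocultures, PC-3 was at least 2-fold higher in 32 and lower in 0 of 34 measured genes (median log2 fold 4.93), beside 23.6% and 22.1% of all genes. Between the cocultures it was 33 higher and 0 lower of 35 with a median of 4.65, beside 23.6% and 20.7% of all genes. ISG15 had 20410 and 17033 counts in the PC-3 coculture and monoculture, against 581 and 544 in the LNCaP coculture and monoculture, a 31.0-fold higher level (28.4 to 33.8) in the PC-3 monoculture. BST2 had 5033 and 3674 counts in the PC-3 coculture and monoculture, against 33 and 5 in the LNCaP coculture and monoculture, and OAS2, which senses double-stranded RNA, had 12181 and 8285 in the PC-3 coculture and monoculture, against 46 and 0 in the LNCaP coculture and monoculture. Of the 39 promoter windows of 28 of these genes, 24 (61.5%) held an ISRE, those of ISG15 and BST2 printed above among them, beside 3.02% of all windows.

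With fibroblasts, the ISGF3 targets of PC-3 tissues were slightly higher. The log2 fold was above 0 in 33 of 35 measured genes, beside 7319 of 14417 over all genes, with a median of 0.43, near that of STAT2 itself (0.45). At least 2-fold higher was 1 gene, beside 2.22% of all genes. It was CXCL10, a chemokine with 17 counts in PC-3 coculture and 2 in PC-3 monoculture. MX2, an antiviral GTPase, was 1.84-fold higher (1.69 to 2.00) and RSAD2, the antiviral enzyme viperin, 1.80-fold higher (1.67 to 1.94) in the PC-3 coculture. In LNCaP tissues the coculture was at least 2-fold higher in 13 and lower in 0 of 32 measured genes (median log2 fold 0.78), beside 4.56% and 3.03% of all genes. The log2 fold of STAT2 was -0.02 there, and 0.02 with DESeq2 size factors. MX2, for example, had 34 counts in LNCaP coculture and 2 in LNCaP monoculture. Fibroblast markers were higher in both cocultures, as given above, and their part in these differences was not tested. The 2 comparisons share no library.

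**Figure D4:**
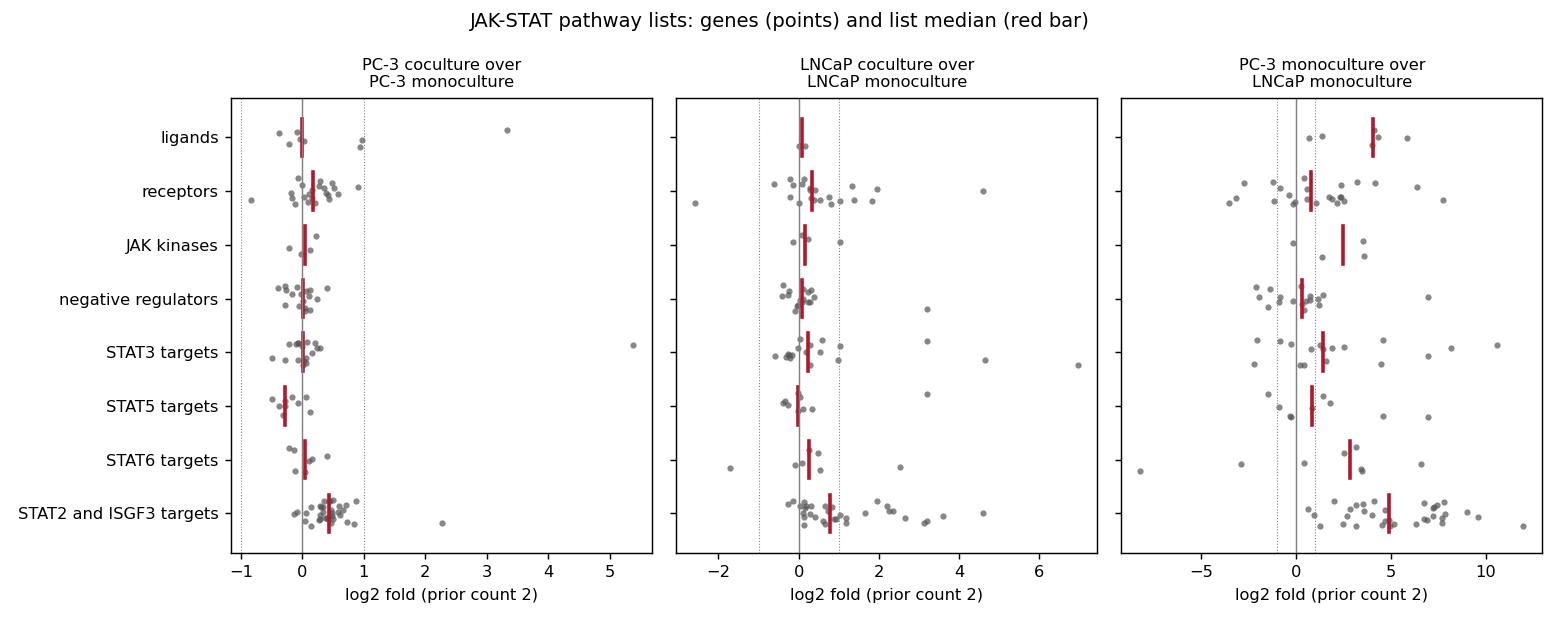
Log2 folds (prior count of 2) of the measured genes of each pathway list for PC-3 coculture over monoculture, LNCaP coculture over monoculture and PC-3 over LNCaP monoculture, 1 point per gene, with a bar at the list median and dotted lines at 2-fold. In PC-3 over LNCaP monoculture all 34 ISGF3 targets lie above 0 (median 4.93), and the STAT3, STAT5 and STAT6 target lists spread over both sides of 0.

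Between the monocultures, PC-3 was at least 2-fold higher in 4 and lower in 4 of 17 measured negative regulators, shares near those over all genes (23.6% and 22.1%). PIAS2, a SUMO ligase that binds STATs, had 742 and 994 counts in the PC-3 coculture and monoculture, against 2784 and 3780 in the LNCaP coculture and monoculture, 3.84-fold lower (3.58 to 4.13) in the PC-3 monoculture. SOCS7 was 4.43-fold lower (3.96 to 4.98). SOCS4 was 2.67-fold higher (2.44 to 2.92) in the PC-3 monoculture, and SOCS3 was higher there too, as given above. Of the other lists in the coculture comparisons, none had a gene at least 2-fold lower in PC-3 tissues, beside 1.01% of all genes. Those at least 2-fold higher were 1 of 8 ligands and 1 of 18 STAT3 targets, beside 2.22% of all genes. These were CNTF, ciliary neurotrophic factor, with 18 counts in PC-3 coculture and 0 in PC-3 monoculture, and A2M, a protease inhibitor, with 81 and 0, both named after their values were seen. In LNCaP tissues the coculture was at least 2-fold higher in 6 and lower in 1 of 22 receptor chains, and higher in 4 and lower in 0 of 18 STAT3 targets, beside 4.56% and 3.03% of all genes. The 16 fibroblast markers were all at least 2-fold higher in that coculture too, and their part in these counts was not tested.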

How the data were processed

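RNA was sequenced from 4 engineered tissue samples, 1 library per group, with TruSeq RNA v2 libraries per the labels' protocols. The authors deposited a table of estimated counts by gene symbol without scaling; the submitters' processing notes name FastQC, STAR, Partek and hg38, and roles, versions, annotation and filters are not given in the sources used here. The series text gives RNA from more than 2 tissues and does not say whether it was pooled. Non-whole values, 33.5% to 33.9% per library, were rounded. Library totals were 15687894 (PC-3 coculture), 15865690 (PC-3 monoculture), 15520243 (LNCaP coculture) and 15860981 (LNCaP monoculture).

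Counts were scaled to CPM with TMM factors (edgeR 4.0.16, R 4.3.3), which lay between 0.996 and 1.01, and log2 folds used a prior count of 2. Ratios carry exact 95% intervals from the conditional binomial distribution and levels carry exact Poisson intervals (scipy 1.17.1). The reads carry no molecular identifiers and may be copies of 1 molecule, so intervals and floors cover counting error only. A library at 0 was set at 3 counts for a bound. Genes were counted as 2-fold apart only where either library reached 1 CPM. No test was run. Levels per kb used the longest protein-coding GENCODE transcript of each gene, because the RefSeq table gives only gene spans. RefSeq positions and promoter windows are on GRCh38.p14, where 17130 symbols matched on the same chromosome. Alternatives were DESeq2 1.42.0 size factors, total counts, upper quartile factors, a prior count of 0.5, unrounded counts and other filters.

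The members, lists, markers and naming rule were chosen with earlier results of these data known, and the ISRE search was added after the values were seen. Named genes were all members and JAK kinases, SOCS3 and CISH, the genes of the run on chromosome 17 with the first 2 expressed genes on either side, and in each list up to 4 genes with at least 100 counts and the log2 folds farthest from 0; other names were chosen after their values were seen. 1 list of the pathway is not reported here. The steps were tested on simulated data.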

Additional observations from a re-analysis of the deposited data

Results flagged for a closer look

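Among the 5 STAT members, the JAK kinases, SOCS3 and CISH, 6 genes had log2 folds of coculture over monoculture with opposite signs in the 2 lines. With 1 library per group the difference was not tested in any of them. STAT2 had a log2 fold of 0.45 in PC-3 and -0.02 in LNCaP tissues, a difference of 0.47, PC-3 minus LNCaP; with DESeq2 size factors the LNCaP value was 0.02, so that the signs were then the same. STAT5B had 3.33 in PC-3 and -0.31 in LNCaP tissues, a difference of 3.64; the PC-3 value starts from 0 counts in the monoculture, so it depends on the prior count and is no bound. JAK2 had -0.03 in PC-3 and 0.08 in LNCaP tissues, a difference of -0.11. JAK3 had -0.22 and 0.23 in PC-3 and LNCaP tissues (difference -0.45), and TYK2 had 0.13 and -0.14 (difference 0.27). SOCS3 had -0.28 in PC-3 and 3.19 in LNCaP tissues, a difference of -3.48, from 411 and 510 counts in the PC-3 coculture and monoculture and 34 and 2 in the LNCaP coculture and monoculture.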

How the results depend on the processing

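The 19 folds of the members that could be formed over the 4 comparisons were recomputed under 5 other settings, and 94 of the 95 values kept the direction. The exception was STAT2 in LNCaP coculture over monoculture, with a log2 fold of -0.02 against 0.02 with DESeq2 size factors. Folds of genes at 0 in 1 library have no upper limit and depend on the prior count: that of STAT3 in PC-3 coculture over monoculture was 4.47, against 6.42 with a prior count of 0.5. Other scalings and unrounded counts moved no member's log2 fold by more than 0.07. The number of genes at least 2-fold apart depended on the filter. For PC-3 coculture over monoculture it was 320 higher and 146 lower, against 906 and 440 with no filter and 87 and 21 with at least 5 CPM. For LNCaP coculture over monoculture it was 644 higher and 428 lower, against 1286 and 753 with no filter and 240 and 154 with at least 5 CPM. The run with STAT3 held 8 genes, 8 at 10 counts or fewer, 9 at a minimum of 1 CPM and 5 at a minimum of 20 CPM in the LNCaP monoculture, which leaves KAT2A, RAB5C, STAT5B, STAT3 and ATP6V0A1. The median log2 fold of the receptors in PC-3 over LNCaP monoculture was 0.81, against 1.12 with DESeq2 size factors. No paired analysis was possible because each group has 1 library, and the spread between tissues cannot be seen. Depth limits STAT5A in PC-3 tissues, where a count of 0 in the monoculture allows up to 0.188 CPM.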
